A study of Mus musculus with 8 samples.

Results

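Type I interferon-stimulated genes are the genes that cells switch on when interferon alpha or beta reaches their surface. A list of 36 such effector and sensor genes was followed here among the 55487 genes of each file. It was chosen by symbol from knowledge of the pathway, with earlier results of these data known. All 36 were found in the files, and 29 of them reached 1 FPKM (fragments per kilobase, a level per transcript length and library size) in at least 4 libraries and so could be tested. Cultured B16F10 cells, a mouse melanoma line that makes pigment, were injected under the skin of C57BL/6 mice. Treatment began 7 to 9 days after injection, when tumors measured about 50 mm3. The tacrolimus group, 4 mice, was given tacrolimus (FK506) intraperitoneally at 3 mg/kg every 5 days, and the vehicle group, 4 mice, was given vehicle on the same schedule. Tumors were taken and digested 6 days after the start of treatment, CD8+ lymphocytes that had infiltrated them were isolated by flow sorting, and RNA was sequenced as 1 library per mouse. The series asks how intermittent dosing with tacrolimus, an inhibitor of the phosphatase calcineurin, acts on such lymphocytes.

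Type I interferons bind a receptor made of IFNAR1 and IFNAR2, and the receptor-bound kinases JAK1 and TYK2 then activate transcription factors. A complex that contains IRF9 binds interferon-stimulated response elements in the promoters of its target genes. Many of the proteins made in this way sense foreign nucleic acid, block viral replication or modify other proteins, and several of them feed back on the pathway itself. In tumors, T cells, myeloid cells and tumor cells can all respond to these cytokines.

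The response element was looked for in the promoter sequences of the genes, since it is the DNA letter pattern they are known to share. RefSeq promoter windows of GRCm38.p6, from 250 bases before to 50 bases after a start site, were found for 27 of the 36 genes. The core was written as GAAANNGAA, where N is any base, and both strands were searched. It occurred in the windows of 20 of the 27 genes (74.1%), against 2638 of all 27025 genes with a window (9.8%). The gamma-activated site TTCNNNGAA, a pattern known from genes that respond to interferon gamma, occurred in 4 of the 27 (14.8%), namely Bst2, Ifit2, Isg20 and Oas1a, against 9.6% of all genes. In 1 place a match of the one pattern overlapped a match of the other. Stretches around the core are shown for 6 genes whose values are described below, each written 5′ to 3′ on the strand of its gene, with the core or its reverse complement in capitals.
Isg15: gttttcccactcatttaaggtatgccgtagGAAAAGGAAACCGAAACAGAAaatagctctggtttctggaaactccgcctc
Rsad2: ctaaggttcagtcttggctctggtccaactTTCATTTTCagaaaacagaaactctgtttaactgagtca
Ifit3: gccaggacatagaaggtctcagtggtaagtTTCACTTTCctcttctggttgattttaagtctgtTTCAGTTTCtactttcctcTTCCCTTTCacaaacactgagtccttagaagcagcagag
Oas1a: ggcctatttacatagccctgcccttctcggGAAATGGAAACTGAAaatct
Ifi213: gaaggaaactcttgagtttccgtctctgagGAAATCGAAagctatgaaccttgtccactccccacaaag
Phf11b: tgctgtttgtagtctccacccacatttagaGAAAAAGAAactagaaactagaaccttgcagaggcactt

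The Isg15 stretch lies at chr4:156200846-156200926 on the minus strand and holds 3 overlapping copies of the core, the last of them 66 bases before the start site. The Rsad2 stretch lies at chr12:26456533-26456601 (minus strand) and the Ifit3 stretch, with 3 copies in reverse orientation, at chr19:34583344-34583465 (plus strand). The Oas1a stretch lies at chr5:120907526-120907575, the Ifi213 stretch at chr1:173599307-173599375 and the Phf11b stretch at chr14:59341342-59341410, all on the minus strand. The 122 bases of the Ifit3 stretch were identical in Ifit3b, and the first 48 bases of the Oas1a stretch were identical in Oas1g, so these neighbours share their element as well as parts of their transcripts. Across the 20 genes there were 36 matches, of which 32 began within 160 bases before a start site and 3 at or after one, and 11 genes had 2 or more in a window. The windows of Herc6, Xaf1 and Oasl2 held no match to the core, which says only that these letters are not in those windows. No window was matched for Mx1, Mx2, Zbp1, Oas2, Rtp4, Parp14, Usp18, Ifi27l2a and Dhx58.

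**Figure D1:**
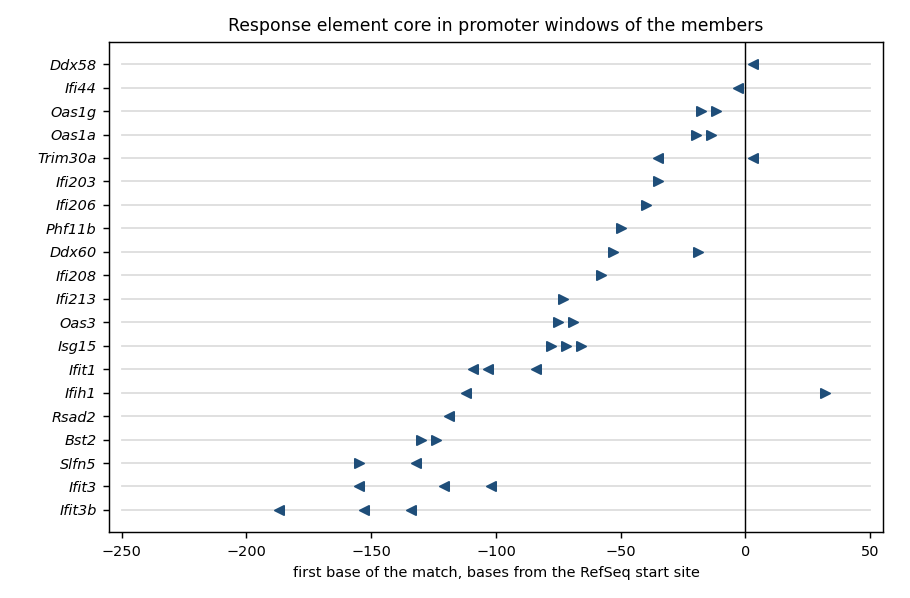
Matches to the response element core in the promoter windows of the 20 genes that hold one. The x axis is the distance in bases from the RefSeq start site (vertical line at 0) to the first base of the match, the grey lines span a window, and a triangle points right for a match on the strand of the gene and left for a reverse match. Of the 36 matches, 32 lie within 160 bases before the start site.

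Each library was estimated from the steps between its low values to hold between 15750000 and 19800000 fragments, so 1 FPKM of a transcript of 2 kb stood for an estimated 31.5 to 39.6 fragments. Between 12724 and 13628 genes per library reached 1 FPKM. Against the label of sorted CD8+ lymphocytes, markers of pigment cells far exceeded those of T cells in every library. The 10 melanoma markers summed to between 18900 and 34100 FPKM per library, with Dct, a melanin synthesis enzyme, at 16600 ± 1470 FPKM with tacrolimus and 16500 ± 4060 with vehicle (mean ± SD, n = 4 each), while 10 T cell markers summed to between 45.6 and 1380 FPKM. The T cell markers were present in every library, with the CD3 gamma chain gene Cd3g at 46.0 ± 31.2 and 139 ± 112 FPKM. Macrophage and monocyte markers were present as well, with the lysozyme gene Lyz2 at 167 ± 52.7 and 444 ± 315 FPKM. Vehicle replicate 1 stood apart from the other vehicle libraries, with the highest T cell, macrophage and pan-leukocyte sums and the lowest melanoma sum of all 8, and values are given with and without it below.

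The 36 genes had lower mean levels after tacrolimus almost throughout, but none of them passed the adjusted test. The mean FPKM was lower in the tacrolimus group for 35 of the 36 genes, and Mx2 was the exception. The largest differences on the log2(FPKM + 1) scale belonged to the nucleic acid sensor gene Zbp1 (-1.77, SE 0.38), the PHD finger gene Phf11b (-1.52, SE 0.50) and the ISG12 family gene Ifi27l2a (-1.30, SE 0.59). Without vehicle replicate 1 these were -1.34, -0.96 and -0.63, and Ifit3 (-1.03) and Ifi208 (-1.01) followed Zbp1. The median difference over the 36 genes was -0.67, and -0.54 without vehicle replicate 1, beside -0.19 and -0.24 over all 13032 genes tested. As most genes had lower values after tacrolimus (75.7%), a scaling that brought the median gene to 0.01 left 27 of the 29 tested genes lower, with a median of -0.49. In bulk RNA of this kind, fewer cells of a type and less RNA per cell cannot be told apart.

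At an adjusted p under 0.05 in limma, 0 of the 29 tested genes differed, as did 0 of all genes tested (0.0%), and the smallest adjusted p was 0.179 among the 29 and 0.139 among all genes. At an unadjusted limma p under 0.05, 17 of the 29 were lower and none was higher, against 15.8% of all genes tested that were lower at that level. The count was 11 with median-of-ratios scaling (5.64% of all genes tested) and 12 with upper-quartile scaling (5.97%). Without vehicle replicate 1, and with no further scaling, 14 of the 29 were lower at that level, against 19.2% of all genes tested. For 14 of the 36 genes every tacrolimus library lay below every vehicle library, a pattern seen in 5.32% of the 28614 genes detected in any library. Among the tested genes it held for 9 of 29, against 10.2% of all genes tested. The other 5 were Ifi208, Ddx60, Oas3, Ifi44 and Slfn5, which were too low to be tested. Under the median-of-ratios and upper-quartile scalings it held for 6 of 29, against 3.48% and 3.44% of all genes tested. A count of this kind cannot fall when a library is left out. Without tacrolimus replicate 3 it was 15 of 29 (11.6% of all genes tested), and without vehicle replicate 1 it was 10 of 29 (19.0%). Over all 36 genes it was 15 without vehicle replicate 1 (9.63% of the genes detected). Mx1, Ifi206, Oasl1, Oasl2 and Ifi213 passed the filter on low values with fewer tacrolimus than vehicle libraries at 1 FPKM.

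**Figure D2:**
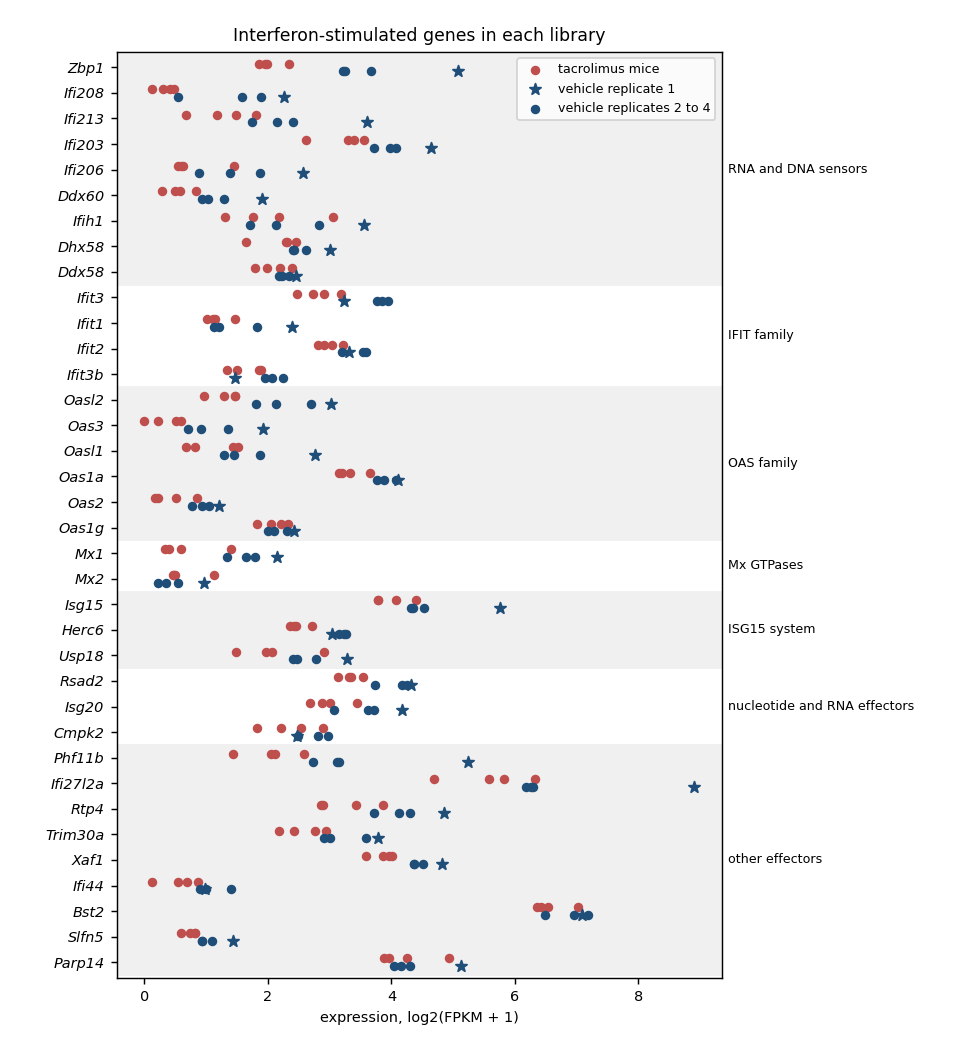
Level of the 36 genes in each of the 8 libraries, grouped by role and ordered within a role by the difference between the groups. The x axis is log2(FPKM + 1), red circles are the 4 tacrolimus libraries, blue circles vehicle replicates 2 to 4 and blue stars vehicle replicate 1, which is the highest library for 28 of the 36 genes.

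**Figure D3:**
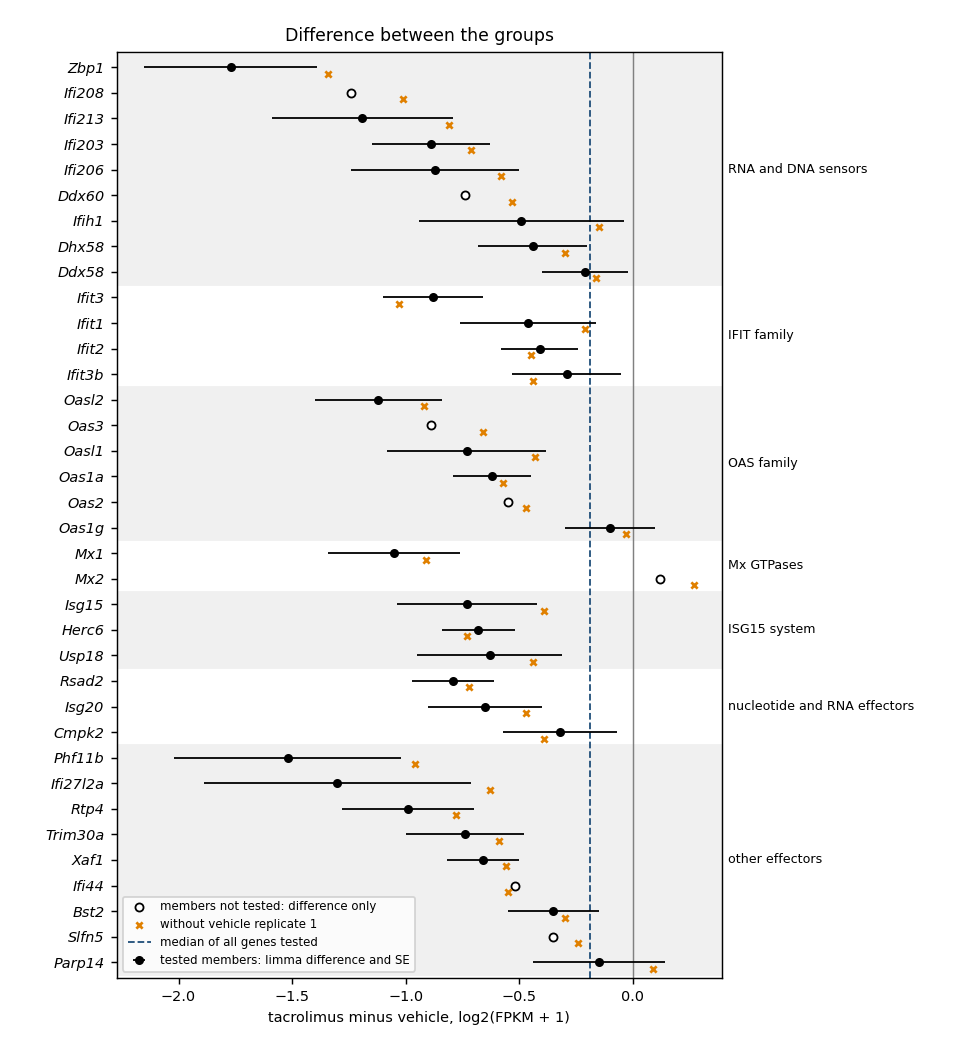
Tacrolimus minus vehicle difference of each of the 36 genes on the log2(FPKM + 1) scale, with the limma standard error as a bar for the 29 tested genes and an open circle for the 7 not tested. Orange crosses give the difference without vehicle replicate 1, and the dashed line at -0.19 is the median of all genes tested. All but Mx2 lie below 0, and without vehicle replicate 1 Parp14 lies above 0 as well.

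The sensors were the role with the lowest median, -0.87 over 9 genes. Without vehicle replicate 1 it was -0.58, close to -0.56 for the role of other effectors and -0.52 for the OAS family. Zbp1 encodes a receptor of Z-form nucleic acid that can start necroptosis. It was at 4.05, 2.6, 2.97 and 2.85 FPKM in tacrolimus replicates 1 to 4 and at 32.7, 8.49, 11.7 and 8.26 in vehicle replicates 1 to 4. The groups did not overlap, and although vehicle replicate 1 stood far above the rest, each of the other vehicle libraries was also above 8. The means were 3.12 ± 0.64 and 15.3 ± 11.7 FPKM (SD, n = 4), or 9.47 for the vehicle group without that library, and the level with tacrolimus was 3.41-fold lower on the log scale (adjusted p = 0.179, limma). Without vehicle replicate 1 it was -1.34 on the log2 scale.

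The sensors Ifi203, Ifi206, Ifi208 and Ifi213 are PYHIN genes, a family of DNA-binding interferon-inducible proteins encoded side by side on chromosome 1. Ifi203, at chr1:173920407-173942672 and the sensor with the highest mean, was at 8.87, 5.16, 9.53 and 10.7 FPKM with tacrolimus and 24.1, 14.7, 12.2 and 15.9 with vehicle. The groups did not overlap, but the closest pair of libraries, tacrolimus replicate 4 and vehicle replicate 3, lay near each other (difference -0.89, SE 0.26, adjusted p = 0.193, limma). Ifi213 was at 2.5, 1.79, 1.27 and 0.59 FPKM against 11.2, 2.35, 4.29 and 3.43. Here tacrolimus replicate 1 was slightly above vehicle replicate 2, so that the groups overlapped (difference -1.19, SE 0.40, adjusted p = 0.208, limma). Ifi206 gave a difference of -0.87 with overlapping groups, and -0.58 without vehicle replicate 1. Ifi208 ranged from 0.09 to 0.4 FPKM with tacrolimus and from 0.46 to 3.8 with vehicle. Between 12.2% and 25.6% of the 50-base words in the transcripts of these 4 genes occur in another gene, so their reads may be split among relatives.

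The cytosolic RNA helicase genes Ifih1, Ddx58 and Dhx58 had smaller differences than the median sensor (-0.87). Ifih1, which encodes the long double-stranded RNA sensor MDA5, was at 7.27, 1.46, 2.37 and 3.52 FPKM with tacrolimus and 10.8, 3.37, 2.27 and 6.08 with vehicle. The groups overlapped widely, as tacrolimus replicate 1 exceeded all vehicle libraries but the first (difference -0.49, SE 0.45, adjusted p = 0.576, limma), and without vehicle replicate 1 the difference was -0.15. Ddx58, the gene of the sensor RIG-I, was at 3.31 ± 0.78 against 3.94 ± 0.423 FPKM (SD, n = 4), a difference of -0.21. Dhx58, which encodes LGP2, a regulator of the other pair, gave -0.44, and both had overlapping groups. Ddx60, another helicase gene of the response, was at 0.22 to 0.78 FPKM with tacrolimus and 0.9 to 2.75 with vehicle and was not tested. Its groups did not overlap, and its difference was -0.74, or -0.53 without vehicle replicate 1.

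The IFIT genes encode proteins that bind foreign RNA and are neighbours on chromosome 19, from Ifit2 at chr19:34550694-34576419 to Ifit1 at chr19:34640871-34650009. Ifit3 was at 6.5, 5.61, 8.05 and 4.56 FPKM with tacrolimus and 8.44, 12.6, 13.5 and 14.3 with vehicle. The groups did not overlap, and vehicle replicate 1, the highest library for most of the 36 genes, was here the lowest of its group. The difference was -0.88 (SE 0.22, adjusted p = 0.183, limma), and -1.03 without that library. Ifit2 gave -0.41, Ifit1 -0.46 and Ifit3b -0.29, each with overlapping groups. Without vehicle replicate 1 these were -0.45, -0.21 and -0.44. Ifit3 and Ifit3b share 51.2% and 45.0% of their 50-base words, mostly with each other, and Ifit3b showed the smaller difference of that pair.

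The OAS enzymes make oligoadenylates that activate RNase L, and the OASL genes encode relatives of them. Oas1a, the most abundant of the 6 genes per transcript length, was at 9.05, 7.87, 11.6 and 8.2 FPKM with tacrolimus and 16.3, 13.8, 12.7 and 15.8 with vehicle. All tacrolimus libraries lay below all vehicle libraries, with tacrolimus replicate 3 nearest to them (9.18 ± 1.69 against 14.6 ± 1.68, SD, n = 4). The difference was -0.62 (SE 0.17, adjusted p = 0.193, limma) and rested little on vehicle replicate 1 (-0.57 without it). Its neighbour Oas1g was at 2.55, 3.65, 4.01 and 3.16 against 4.37, 2.99, 3.93 and 3.3 FPKM. These groups overlapped throughout, and the difference of -0.10 (SE 0.20, adjusted p = 0.804, limma), -0.03 without vehicle replicate 1, was the smallest of the 29. Oas1a and Oas1g share 57.6% and 45.7% of their 50-base words, so their separate levels are uncertain.

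Oasl2, at chr5:114896936-114912234, was at 1.75, 1.77, 1.45 and 0.95 FPKM with tacrolimus and 7.12, 2.51, 3.37 and 5.48 with vehicle. The groups did not overlap, and vehicle replicates 1 and 4 were the high libraries (difference -1.12, SE 0.28, adjusted p = 0.183, limma). Oasl1, a translational brake on the interferon regulator IRF7, gave -0.73 with overlap, and -0.43 without vehicle replicate 1. Oas3 was at 0 to 0.51 FPKM with tacrolimus, with replicate 2 listed at 0, and at 0.63 to 2.79 with vehicle, and Oas2 was at 0.12 to 0.81 against 0.7 to 1.32. Neither was tested.

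The Mx genes encode dynamin-like GTPases that trap viral particles, and many inbred mouse strains carry defective copies. The annotation lists Mx2 as a polymorphic pseudogene. Mx1 was at 1.65, 0.51, 0.31 and 0.26 FPKM with tacrolimus and 3.42, 2.44, 2.13 and 1.52 with vehicle. Only tacrolimus replicate 1 reached the vehicle range (difference -1.05, SE 0.29, adjusted p = 0.193, limma). Mx2 was at 0.38 to 1.19 against 0.17 to 0.96 FPKM, with a mean of 0.595 against 0.467, and was not tested.

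Isg15 encodes a ubiquitin-like modifier, Herc6 the main ligase that attaches it in mice and Usp18 the protease that removes it and also damps the receptor. Isg15 was at 15.8, 12.8, 19.99 and 12.8 FPKM with tacrolimus and 53.2, 21.97, 19.4 and 18.9 with vehicle. Tacrolimus replicate 3 exceeded vehicle replicates 3 and 4, so the groups overlapped, and vehicle replicate 1 was the sole library far from the rest. The difference of -0.73 (SE 0.31, adjusted p = 0.269, limma) was -0.39 without that library. Herc6 gave the opposite picture, with narrow groups that did not overlap. It was at 4.36, 4.12, 4.45 and 5.58 FPKM with tacrolimus and 7.2, 8.38, 8.58 and 7.91 with vehicle (4.63 ± 0.65 against 8.02 ± 0.613, SD, n = 4). The difference was -0.68 (SE 0.16, adjusted p = 0.179, limma) and -0.73 without vehicle replicate 1, which was the lowest vehicle library. Of its 50-base words 12.5% occur elsewhere, nearly all in the gene model Gm45193. Usp18 gave -0.63 with overlapping groups.

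Rsad2 encodes viperin, an enzyme that turns CTP into a chain terminator of viral RNA synthesis, and Cmpk2, a nucleotide kinase gene, lies next to it on chromosome 12 on the opposite strand. Rsad2, at chr12:26442746-26456452, was at 7.75, 10.7, 9.21 and 8.89 FPKM with tacrolimus and 19.0, 17.0, 12.4 and 18.1 with vehicle. The groups did not overlap and vehicle replicate 3 was nearest to the tacrolimus libraries (9.13 ± 1.21 against 16.6 ± 2.95, SD, n = 4). The difference was -0.79 (SE 0.18, adjusted p = 0.179, limma), and -0.72 without vehicle replicate 1. Cmpk2 was at 4.34 ± 1.66 against 5.51 ± 1.15 FPKM (SD, n = 4), a difference of -0.32 with overlapping groups. The exonuclease gene Isg20 gave -0.65, also with overlap.

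Among the remaining 9 effectors, Ifi27l2a and Bst2 supplied between 39.7% and 59.4% of the summed FPKM of the 36 genes in each library. Ifi27l2a was at 55.9, 24.9, 79.2 and 46.7 FPKM with tacrolimus and 477, 75.4, 71.2 and 77.2 with vehicle. Tacrolimus replicate 3 was above vehicle replicates 2 to 4, and vehicle replicate 1 was 6.33 times the median of the other vehicle libraries, the largest such ratio of the 36 genes. Its difference of -1.30 (adjusted p = 0.288, limma) was -0.63 without that library. Bst2, the gene of tetherin, which holds budding virions at the cell surface, was at 91.4, 80.8, 129 and 84.8 FPKM against 135, 144, 124 and 88.9. Tacrolimus replicates 1 and 3 lay above vehicle replicate 4, so the groups overlapped (difference -0.35, adjusted p = 0.367, limma). Bst2 is also a marker of plasmacytoid dendritic cells, and was chosen for values by library after they were seen. The other 6 markers of that cell type summed to 12.3 to 20.6 FPKM with tacrolimus and 16.2 to 23.8 with vehicle.

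Xaf1, whose product counters an inhibitor of caspases, was at 15.1, 13.6, 14.6 and 10.99 FPKM with tacrolimus and 27.1, 21.8, 19.7 and 19.6 with vehicle. No library crossed between the groups, and all vehicle libraries stood above 19 (13.6 ± 1.82 against 22.1 ± 3.54, SD, n = 4). The difference was -0.66 (SE 0.16, adjusted p = 0.183, limma). Phf11b was at 4.97, 1.7, 3.12 and 3.35 against 36.8, 5.62, 7.68 and 7.92 FPKM. The groups did not overlap, with tacrolimus replicate 1 close to vehicle replicate 2 and vehicle replicate 1 far above the rest, and without that library the difference was -0.96 in place of -1.52. Of its 50-base words 47.1% occur in other genes, mostly in its relative Phf11a.

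Rtp4, a chaperone-like protein gene of the response, was at 6.45, 6.27, 13.6 and 9.74 FPKM with tacrolimus and 27.9, 18.7, 12.1 and 16.5 with vehicle. Tacrolimus replicate 3 exceeded vehicle replicate 3, and no other library crossed (difference -0.99, SE 0.29, adjusted p = 0.194, limma). Parp14, an ADP-ribosyltransferase gene, was at 13.8, 14.5, 29.6 and 18.1 against 34.1, 16.9, 18.7 and 15.5 FPKM. The groups overlapped broadly, and the difference of -0.15 (SE 0.29, adjusted p = 0.800, limma) became 0.09 without vehicle replicate 1. Trim30a, a ubiquitin ligase gene, gave -0.74 with overlap. Ifi44 was at 0.09 to 0.83 FPKM with tacrolimus and 0.87 to 1.64 with vehicle, and the Schlafen gene Slfn5 at 0.51 to 0.77 against 0.9 to 1.69.

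The level of many of these genes followed the library, vehicle replicate 1 most of all. Vehicle replicate 1 was the highest library for 28 of the 36 genes, against 20.2% of all genes tested. Tacrolimus replicate 2 was the lowest for 19, and the share of all genes lowest in it was not computed. Relative to the median of the other tacrolimus libraries, its median ratio over the 36 genes was 0.867. The ratio was 1 or more for 11 genes, and 4 genes were highest of the tacrolimus group in it. The 36 genes summed to 303, 236, 395 and 276 FPKM in tacrolimus replicates 1 to 4 and to 1030, 450, 419 and 418 in vehicle replicates 1 to 4. The sums did not overlap, and those of vehicle replicates 2 to 4 were close to that of tacrolimus replicate 3. Relative to the median of the other vehicle libraries, vehicle replicate 1 had a median ratio of 1.75 over the 36 genes and 0.923 over all genes tested. All 9 sensors and all 6 OAS genes were highest in vehicle replicate 1, but only Ifit1 of the 4 IFIT genes was. In vehicle replicate 1, 14 genes were at least 2-fold above the median of the other vehicle libraries, and 6 were below that median. These 6 were Ifit3b (0.553), Ifit3 (0.628), Cmpk2 (0.749), Ifit2 (0.835), Herc6 (0.859) and Ifi44 (0.98).

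Sums of T cell, macrophage and pan-leukocyte markers were also highest in vehicle replicate 1 and lowest in tacrolimus replicate 2, and the markers had lower means after tacrolimus. The ratio of vehicle replicate 1 to the median of the other vehicle libraries was 3.89 for Ptprc, the pan-leukocyte gene of CD45, 3.21 for Cd8a, the CD8 alpha chain gene, and 0.558 for the melanosome gene Pmel, genes chosen after their values were seen. Tacrolimus replicate 2 stood at 0.352 of the other tacrolimus libraries for Ptprc and 0.174 for Cd8a. The 10 T cell markers, all with lower means after tacrolimus, summed to 45.6 to 336 FPKM with tacrolimus and 329 to 1380 with vehicle (at most 479 without vehicle replicate 1). All 12 macrophage and monocyte markers had lower means too, with sums of 238 to 553 and 504 to 1930 (at most 1110), and the 5 pan-leukocyte markers summed to 123 to 494 and 496 to 2060 (at most 681). Melanoma marker sums overlapped, at 22500 to 27600 and 18900 to 34100. Sums of other leukocyte lists overlapped between the groups as well. Neutrophil markers summed to 13.9 to 46.1 and 32.1 to 351 (at most 77.6), with tacrolimus replicate 2 the highest of its group, natural killer markers to 17.9 to 27.1 and 18.7 to 74.9 (at most 24.6), with 3 of 6 means lower, and dendritic cell markers to 18.7 to 24.2 and 23.2 to 104 (at most 44.1). No marker list had a gene at 0 in all libraries.

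**Figure D4:**
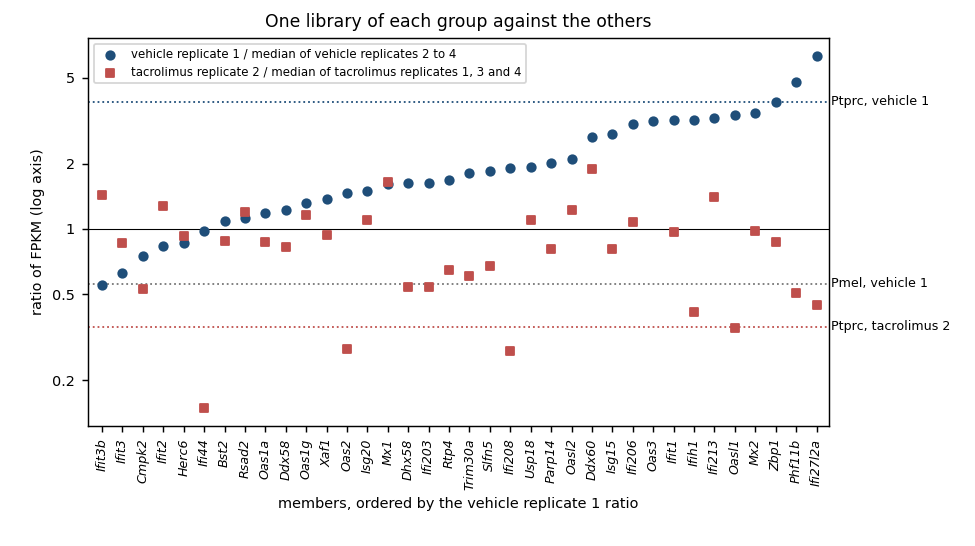
Ratio, on a log axis, of vehicle replicate 1 to the median of the other vehicle libraries (blue circles) and of tacrolimus replicate 2 to the median of the other tacrolimus libraries (red squares) for each of the 36 genes, ordered by the blue ratio. Dotted lines give the same ratios of Ptprc and Pmel, and the red value of Oas3, listed at 0, is not drawn. The blue ratios run from 0.553 for Ifit3b to 6.33 for Ifi27l2a.

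When a marker level was added to the limma model, the genes moved by different amounts. With the pan-leukocyte level as a covariate the median difference of the 29 tested genes was -0.25, beside -0.29 over all genes tested, and 21 of the 29 remained below 0. At an unadjusted limma p under 0.05, 5 of the 29 were lower in that fit (19.4% of all genes tested), 4 with the T cell level (17.4%) and 6 with the macrophage level (9.85%). With the T cell level it was -0.30 beside -0.29, and with the macrophage level -0.34 beside -0.24, with 24 of 29 below 0 each time. These covariates are themselves lower in the tacrolimus group, so the fits split a shared difference between the terms. Herc6 was at -0.73, Ifit3 at -1.10 and Rsad2 at -0.80 with the pan-leukocyte covariate, at least as far from 0 as without it. In the same fit Ifi27l2a was at 0.45, Ifih1 at 0.81, Phf11b at 0.03 and Isg15 at 0.02. These genes were named after their values were seen, and their SE ran from 0.24 to 0.44. Oasl2 (-0.66), Mx1 (-0.62), Rtp4 (-0.54), Xaf1 (-0.46) and Oas1a (-0.43) lay between them. With the macrophage covariate Rsad2 was at -0.64. Zbp1 moved from -1.77 to -0.78 with the pan-leukocyte covariate and to -1.23 with the macrophage covariate. No gene passed the adjusted threshold in any of these 3 fits.

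The melanoma level as a covariate gave the opposite movement, with a median of -0.80 and all 29 genes below 0. In that fit 7 of the 29 genes passed an adjusted limma p under 0.05 and were lower after tacrolimus, against 3.2% of all genes tested. They were Zbp1 (-2.12, adjusted p = 0.0155), Phf11b (-1.98, adjusted p = 0.0191), Ifi213 (-1.54, adjusted p = 0.0266), Xaf1 (-0.76, adjusted p = 0.0269), Ifi27l2a (-1.86, adjusted p = 0.0276), Isg15 (-1.02, adjusted p = 0.0279) and Oasl2 (-1.28, adjusted p = 0.0388). The melanoma sum was lowest in vehicle replicate 1 (18900 FPKM), the highest library for each of these 7 genes. The fit therefore cannot fully separate the covariate from that library. The SE of Zbp1 was 0.20 in place of 0.38, and that of Ifi27l2a 0.32 in place of 0.59. The part of tumor RNA content in these values was not tested.

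Upstream of the 36 genes, interferon beta was the only ligand gene of the list above 0.17 FPKM in any library. Of 18 type I interferon genes, 16 were listed at 0 throughout, and Ifnz reached 0.17 FPKM at most. Ifnb1, the gene of interferon beta, was at 2.72, 1.37, 2.05 and 1.92 FPKM with tacrolimus and 16.7, 1.17, 0.86 and 2.09 with vehicle. Vehicle replicate 1 alone was high, and the other vehicle libraries lay within or below the tacrolimus range. The difference was -0.37 (SE 0.61, adjusted p = 0.762, limma), and on the log scale without that library it was 0.36. The library with the most Ifnb1 was thus also the highest for most of the 36 genes.

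All 10 receptor and JAK-STAT genes had lower means after tacrolimus, 6 of them with groups that did not overlap (10.2% of all genes tested), and their median difference was -0.76, or -0.54 without vehicle replicate 1. Irf9, a DNA-binding part of the response complex, was at 6.99, 5.49, 6.0 and 5.7 FPKM with tacrolimus and 12.5, 11.2, 12.5 and 11.3 with vehicle (difference -0.87, SE 0.15, adjusted p = 0.147, limma). Its libraries differed little within a group, and no library crossed between the groups. The feedback inhibitor gene Socs3 gave -1.04 and the receptor gene Ifnar1 -0.76, both without overlap.

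Of the 15 genes of nucleic acid sensing that were matched, 13 could be tested, all 15 had lower means and 6 did not overlap, all of them tested (against 10.2% of all genes tested), with a median of -0.52. The lead genes were Unc93b1, which escorts endosomal Toll-like receptors (-1.09), Trim25, a ligase that activates RIG-I (-0.77), the adaptor gene Myd88 (-0.71) and the transcription factor gene Irf3 (-0.46). Of 56 other interferon-stimulated genes, 53 had a difference below 0 on the log2 scale and 27 did not overlap (5.32% of the genes detected), with a median of -0.60. Among the 50 of them that could be tested, 25 did not overlap, against 10.2% of all genes tested. Lgals9, which encodes a galectin (-0.67), Trim34a (-1.05), Tor3a (-0.58) and Parp12 (-0.59) had the smallest p among them, and the differences of Eif2ak2, Oas1b and Slfn9, named after their values were seen, were above 0. Samd9l, also named afterwards, was just below 0 on that scale (-0.02) with a slightly higher mean FPKM after tacrolimus (6.68 against 6.59).

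The GTPases best known as targets of interferon gamma lay lower still. All 16 had lower means, and the median was -1.07, or -0.90 without vehicle replicate 1. Of the 15 that could be tested 11 did not overlap, against 10.2% of all genes tested. Ifi47 was at 8.4, 9.89, 11.1 and 8.97 FPKM with tacrolimus and 32.6, 23.1, 23.7 and 19.5 with vehicle (difference -1.26, SE 0.18, adjusted p = 0.139, limma). Igtp gave -1.27, Iigp1 -1.22 and Gbp8 -1.63, with groups that did not overlap. None of the genes of these lists passed the adjusted test, and the difference between the lists was not tested.

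**Figure D5:**
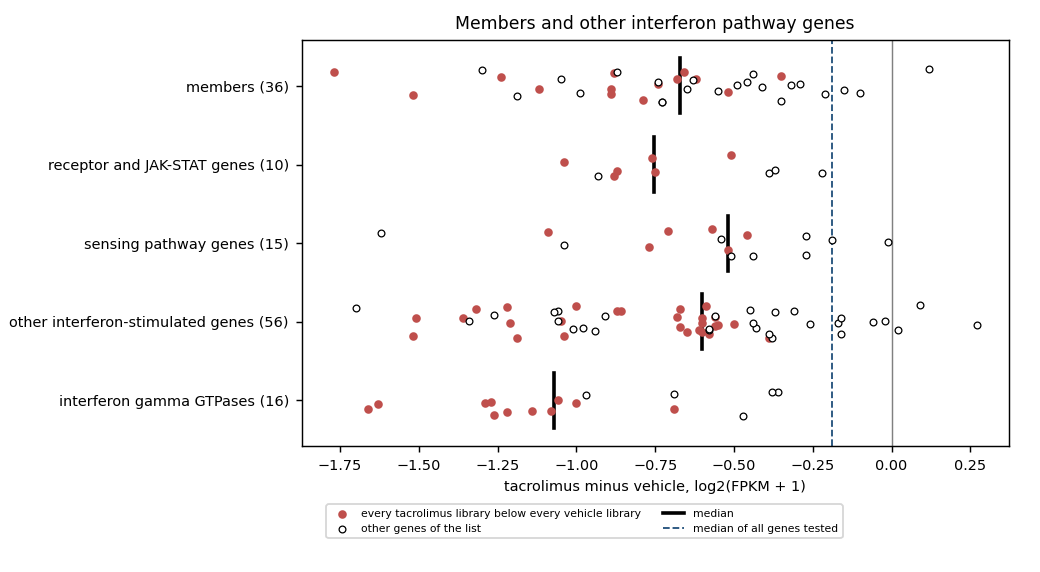
Tacrolimus minus vehicle difference on the log2(FPKM + 1) scale for the 36 genes and for 4 lists of other interferon pathway genes, 1 point per gene with vertical scatter for legibility only. Filled points mark genes whose tacrolimus libraries all lie below their vehicle libraries, black bars the medians, from -0.52 for sensing genes to -1.07 for the interferon gamma GTPases, and the dashed line the median of all genes tested at -0.19.

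The presence of the response element core did not sort the 27 genes with a window clearly by difference. Of the 20 genes with a match, 10 had groups that did not overlap and the median difference was -0.74. Of the 7 genes with a window but no match, 3 did not overlap and the median was -0.66. Of the genes detected in any library, 5.32% did not overlap in this direction. These values describe the genes with a window and were not tested. The 9 genes without a window, which ran from Zbp1 (-1.77) to Mx2 (0.12), are not among them.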

How the data were processed

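Sorted CD8+ lymphocytes of 8 mice, 4 per group, gave 1 RNA library each; groups and replicate numbers come from the sample titles. The submitters' processing notes name HISAT2 2.1.0, RSEM 1.3.1, DESeq2 1.24.0 and the build GRCm38.p6, with no role or order. The deposited files give 1 value per gene and name no unit. The values fit FPKM, so the deposited FPKM values were taken as already scaled by the authors for transcript length and library size, and the test foreseen for FPKM was used. Library sums were 890182 to 926808. Between 84.2% and 86.4% of low values lay within 0.15 of a whole step of their library, from which fragments were estimated; no count model was used.

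Genes at 1 FPKM or more in at least 4 libraries were compared as log2(FPKM + 1) with limma 3.58.1 (lmFit, eBayes with trend) in R 4.3.3, two-sided, with Benjamini-Hochberg adjustment over all genes tested. Fold changes on this scale understate those of low genes. Of the identifiers, 346 had no symbol, and 3 list genes (Mb21d1, Mnda, Pyhin1) were not matched. Gene coordinates are those of GENCODE M21 on GRCm38, promoter windows those of RefSeq. Shared sequence was counted as 50-base words of annotated transcripts. The limma step was tested on simulated data. Python 3.11.15 and matplotlib 3.10.9 were used.

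The 36 genes and the other lists were chosen with earlier results of these data known. Values by library are given for the 12 tested genes with the smallest p, the most abundant gene of each role and the 3 with the largest p; of each other list up to 4 genes with the smallest p are named, and of each marker list up to 2 with the highest mean. Alternatives were other pseudocounts, filters, scalings, variance settings, marker covariates, a block by replicate number and the removal of each library in turn. The values of 1 pathway gene are not reported here.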

Additional observations from a re-analysis of the deposited data

Results flagged for a closer look

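In 7 of the 72 groups of 4 values (36 genes, each in the tacrolimus and the vehicle group), 1 library stood farther from the others than Dixon's criterion allows at the 95% level. Chance alone gives about 1 in 20 groups if values are normally distributed. The criterion was applied to FPKM without a log, and all 7 were on the high side. The genes share the same libraries, so the groups are not independent of each other. Vehicle replicate 1 accounted for 4 of the 7. It was at 53.23 FPKM for Isg15, with the other vehicle libraries between 18.86 and 21.97, and at 477.16 for Ifi27l2a, with the others between 71.16 and 77.2. It was at 32.66 for Zbp1, with the others between 8.26 and 11.65, and at 36.76 for Phf11b, with the others between 5.62 and 7.92. The remaining 3 concerned genes of low level. Ifi44 was at 1.64 FPKM in vehicle replicate 3, with the others between 0.87 and 1. Mx2 was at 1.19 in tacrolimus replicate 4, with the others between 0.38 and 0.41. Ifi206 was at 1.74 in tacrolimus replicate 3, with the others between 0.45 and 0.54.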

How the results depend on the processing

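The absence of a call and the lower values held under other pseudocounts, filters, robust variance and library weights, all with 0 members and 0 genes called. With the melanoma covariate 434 genes (417 lower, 3.2% of all genes tested) and 7 of the 29 tested members were called. Leaving out each library in turn gave 0 to 1 genes called, and 0 of the 29 tested members. The 1 gene, called without vehicle replicate 1, was higher after tacrolimus. The median of the tested members was then -0.79 to -0.56. Of the tested members 9 to 15 did not overlap (15 without tacrolimus replicate 3), a count that the removal of a library cannot lower. The share of all genes tested without overlap was then 11.6% to 19.0%. With no filter 14 of the 36 did not overlap, against 5.32% of the genes detected. The median was -0.30 with the T cell, -0.34 with the macrophage and -0.25 with the pan-leukocyte covariate. Signs turned for Oas1g (0.07) and Parp14 (0.06) under both the median-of-ratios and the upper-quartile scaling. They turned with the T cell covariate for Ifi27l2a (0.32), Ifih1 (0.71) and Parp14 (0.30), with the macrophage covariate for Ifi27l2a (0.01), Ifih1 (0.45) and Parp14 (0.29), and with the pan-leukocyte covariate for Ifi27l2a (0.45), Ifih1 (0.81), Isg15 (0.02), Parp14 (0.35) and Phf11b (0.03). Leaving out 1 library moved Parp14 from -0.38 to 0.09, the latter without vehicle replicate 1. The cause of these shifts was not tested.

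Libraries of the 2 groups share replicate numbers only. Deviations of same-numbered libraries correlated at 0.215, 0.277, -0.02 and -0.022, so the numbers were not taken as a pairing, and not every library correlated best with its own number. With the replicate number as a block 121 of all 13032 genes tested were called (115 lower). Among them was 1 of the 29 tested members, Zbp1 (-1.77, adjusted p = 0.0451, limma). Mx2, Oas2, Oas3, Ddx60, Ifi208, Ifi44 and Slfn5 were at low levels and were not tested. The lowest of their values, such as 0.09 FPKM of Ifi208 in tacrolimus replicate 2, rest on few fragments. With 4 mice per group the precision of all differences is limited.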
